A study of Homo sapiens with 12 samples.

Results

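The comparison described here is that of ASLAN003 with its solvent DMSO in KG-1, an established human acute myeloid leukaemia cell line. It covers 6 of the 12 RNA sequencing libraries of the series, 3 labelled KG-1 DMSO and 3 labelled KG-1 ASLAN003. All 6 came from cells grown in the same serum-containing RPMI medium and held for 96 h with either agent. The other 6 libraries are the same 2 groups in MOLM-14, a second leukaemia line, and they enter only where the change in KG-1 was set against the change in MOLM-14. The dose of ASLAN003 and the number of cells or cultures behind a library are not given in the sources used here. A group is 1 cell line in culture, and the labels do not say that its 3 libraries were separate cultures, so every p-value covers only library-to-library spread, which may be technical. Genes were members of the comparison if they reached 1 FPKM in at least 3 of the 6 libraries, whichever group those were, and 12785 of the 13881 listed genes did so. FPKM divides fragment numbers by the length of the transcript and the size of the library, so levels are comparable between genes of different length.

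The level rule admitted 266 genes through 1 group alone, 197 of them through ASLAN003 and 69 through DMSO. Of these, 188 and 60 were called, a count that the rule itself favours because such genes had to differ. At the edge of the rule, TMEM2 and SPDYE6 had 1 FPKM in their third-highest library and were members. DGKH, CEACAM4, MGMT, SYCP2 and ZNF763 had 0.99 FPKM there and were not.

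Depth was estimated from the steps between low values at 17760000 to 18580000 fragments. Replicates had a median SD of 0.128 on the log2 scale in DMSO and 0.155 in ASLAN003. The leading principal component held 73.9% of the variance and separated the treatments. On the next (9.41%), ASLAN003 replicates 1, 2 and 3 had scores of -11, -16.9 and 28. The mitochondrially encoded genes took 3.17% of listed FPKM in that library and 4.95% to 5.69% in the other 5. In all 3 ASLAN003 libraries the 81 cytosolic ribosomal protein genes took less of the listed FPKM (15.5% to 16.6%) than in the DMSO libraries (26.0% to 27.1%). Because FPKM is relative to the whole library, such shifts move the values of all other genes. After rescaling without the ribosomal protein genes, 3269 genes were higher and 2805 lower, and the median change of all genes moved by -0.02. Likewise, in bulk libraries fewer cells of a type and less RNA per cell cannot be told apart.

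The line was checked against its markers. KG-1 is known as a CD34-positive line with a rearranged FGFR1 gene. CD34 (0.0 to 0.17 FPKM) and KIT (0.03 to 0.39 FPKM) were below the level rule in all 6 libraries, and FGFR1 lay at 3.67 to 4.49 FPKM here and at 49.4 to 63.3 FPKM in the MOLM-14 libraries. HLA-DRA, another listed marker of KG-1, was at 0.15 to 1.78 FPKM in DMSO and 1.04 to 2.46 FPKM with ASLAN003. Other listed markers were well above the level rule, with ANPEP at 12.3 to 210 FPKM and MPO at 33.8 to 172 FPKM over both groups. The data therefore go against the label for CD34, and KIT, HLA-DRA and FGFR1 were low as well. KIT and HLA-DRA were at 0.77 to 4.07 and 1.87 to 21.5 FPKM in the MOLM-14 libraries. Other markers differed between the lines in the direction of the labels. ANPEP and MPO were at 0.03 to 0.88 and 4.04 to 25.1 FPKM in MOLM-14. The listed MOLM-14 markers FLT3 and HOXA9 were at 17.5 to 35.8 and 7.15 to 13.2 FPKM in KG-1. In MOLM-14 they were at 96.3 to 118 and 61.4 to 80.0 FPKM. The identity of the line was not tested further, and "KG-1" below means the libraries so labelled. CD33, a myeloid surface marker, was at 23.5 to 27.9 FPKM, and at 37.4 to 46.5 FPKM in MOLM-14. Among markers of other cell types, the summed level of 4 listed T and NK cell genes was 19.95 to 25.9 FPKM in DMSO and 38.0 to 41.5 FPKM in ASLAN003, mostly from NKG7, while CD3D reached at most 0.22 FPKM. Listed B cell and plasma cell genes (3) summed to 7.86 to 9.78 FPKM in DMSO and 10.6 to 14.2 FPKM in ASLAN003. Erythroid and megakaryocyte genes (3) summed to 18.4 to 21.2 FPKM and 13.2 to 13.9 FPKM, and epithelial, endothelial and fibroblast genes (4) to 29.4 to 36.4 FPKM and 29.1 to 42.4 FPKM.

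ASLAN003 inhibits dihydroorotate dehydrogenase (DHODH), a mitochondrial enzyme that passes electrons to coenzyme Q while making orotate, the precursor of all pyrimidine nucleotides. Cells deprived of this route depend on salvaged uridine, and inhibition of DHODH is known to release leukaemic myeloid cells from a block in maturation. Normal granulocytes and monocytes mature in a fixed order, with granule enzymes made early, the oxidase, receptors and adhesion molecules made late, and nucleotide and ribosome synthesis wound down at the end.

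Changes reached a large part of the expressed genes. By limma, 6093 of the 12785 genes (47.7%) passed at an adjusted p under 0.05, 3435 of them higher (26.9%) and 2658 lower (20.8%) with ASLAN003. In 7327 genes (57.3%) the 3 treated libraries did not overlap the 3 control libraries. A change of at least 2-fold was reached by 1021 of the higher and 415 of the lower genes, and one of at least 8-fold by 55 and 5. The median change of all tested genes was 0.05 on the log2 scale. The share of higher calls was 56.4%, but 42.6% after centring each library on its median, 45.5% after quantile normalization and 71.6% after rescaling to the FPKM left when histone, mitochondrial, ribosomal RNA and small RNA genes were removed (below, after rescaling). Those scalings moved the median of all genes by -0.12, -0.10 and 0.14, so small changes below are relative to that uncertainty. The last of them also makes the summed FPKM of the remaining genes equal between libraries. Summed over all listed genes, FPKM was lower in every ASLAN003 library than in every DMSO library. How far the shift of 0.14 came from that sum rather than from the genes removed was not tested.

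The direction of change went with the level of the gene. Among the 459 genes with a mean of at least 200 FPKM, 93 rose and 253 fell, with a median of -0.32. Without the ribosomal protein genes, 379 such genes remained, 93 higher and 173 lower, with a median of -0.19. Of 4628 genes between 5 and 20 FPKM, 1267 rose and 820 fell, with a median of 0.08. Of 11201 protein-coding genes, 28.4% rose and 21.2% fell, and of 257 processed pseudogenes 6.23% rose and 33.9% fell, though reads of a pseudogene can come from its parent gene. In the plot of level against change, S100A8, S100A9 and TMSB4X are among the abundant genes that rose.

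**Figure D1:**
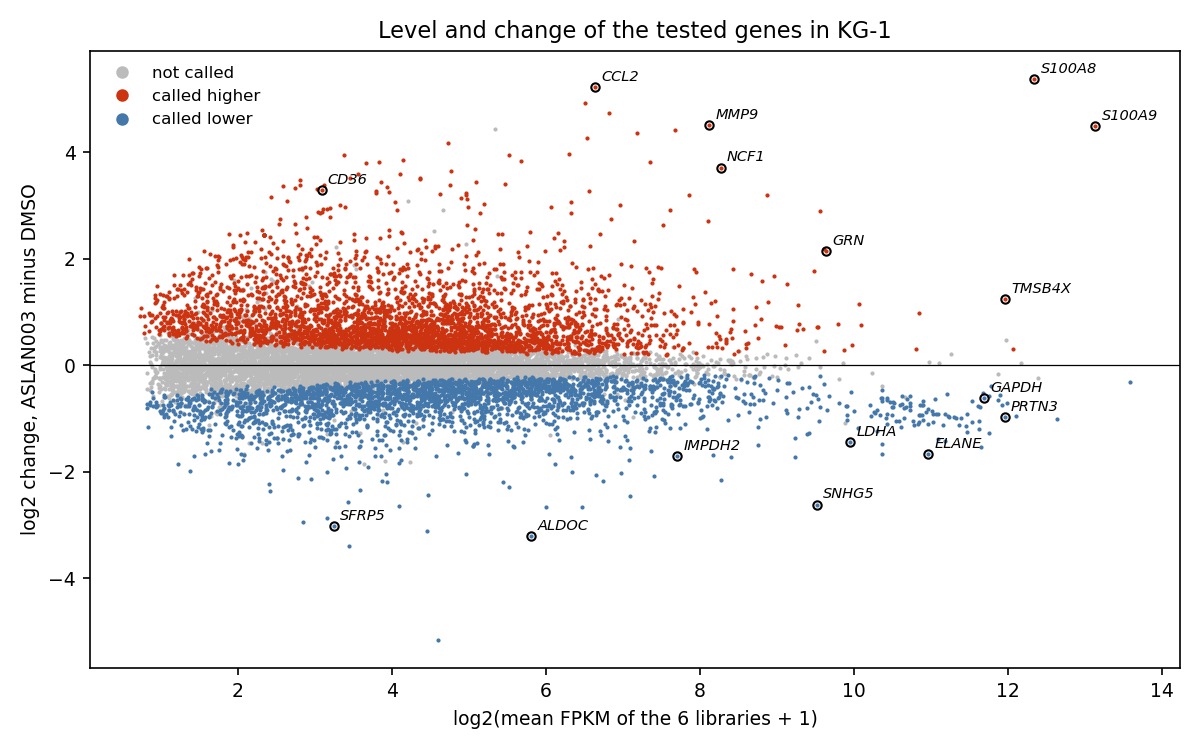
Each point is 1 of the 12785 tested genes, with the log2 of its mean FPKM over the 6 libraries plus 1 on the horizontal axis and its log2 change (ASLAN003 minus DMSO) on the vertical axis. Red points were called higher (3435) and blue points lower (2658), and among the genes on the right, at 200 FPKM or more, 253 of 459 were lower.

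The groups below are read against the background shares of 26.9% higher and 20.8% lower. Each is described by its counts and the median log2 change of its tested members, with 3 libraries per group throughout. Errors of levels are SD, and errors of log2 changes are the SE of the moderated fit. Of the 40 lists, 27 had a median above 0.

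Most genes of the pathway that ASLAN003 blocks fell. Of 8 tested genes of de novo pyrimidine and CTP synthesis, 0 rose and 5 fell, with a median of -0.50 (1 and 5 after rescaling). DHODH itself (ENSG00000102967.11, GRCh38 chromosome 16, 72008588 to 72027664, plus strand) stood at 14.4, 11.9 and 12.7 FPKM in DMSO and 8.72, 8.61 and 9.71 FPKM with ASLAN003. All treated libraries lay below all controls, and the change was -0.48 ± 0.12 (adjusted p = 0.00901, and 0.0801 in a fit of all 12 libraries). CAD, whose protein carries the first 3 steps of the pathway, fell from 51.4 to 32.7 FPKM. CTPS1, a CTP synthase, fell from 64.3 to 44.8 FPKM, and its paralogue CTPS2 was at 8.76 to 8.71 FPKM and did not pass. UMPS, which turns orotate into UMP, was at 50.2, 62.3 and 29.5 FPKM in DMSO and 54.1, 35.3 and 26.8 FPKM with ASLAN003. Its libraries spread widely within both groups and overlapped, and it did not pass. NME1 and NME2, adjacent nucleoside diphosphate kinase genes that readthrough transcripts join, fell by 1.02 and 1.01, and reads may be divided between them.

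Salvage and breakdown genes moved both ways. Of 15 tested genes of pyrimidine salvage, transport and breakdown, 7 rose and 4 fell, with a median of 0.23. DPYD, the enzyme that starts pyrimidine breakdown, stood at 1.93, 2 and 3.62 FPKM in DMSO and 15.4, 17.1 and 22.2 FPKM with ASLAN003, a change of 2.47 ± 0.206 (adjusted p = 1.42e-05). Treated libraries were several times higher than controls, without overlap. CDA, the cytidine deaminase, rose from 11.8 to 69.5 FPKM, UPP1, the uridine phosphorylase that frees uracil from uridine, from 3.06 to 6.2 FPKM, and TYMP, a thymidine phosphorylase, from 7.8 to 12.3 FPKM. The nucleotidase NT5C2 rose from 60.9 to 118 FPKM, and the lysosomal nucleoside transporter SLC29A3 from 4.59 to 9.66 FPKM. In the direction of uptake, UCK2, a kinase that salvages uridine and cytidine, fell from 52.4 to 32.9 FPKM, and the plasma membrane transporter SLC29A2 from 12.7 to 5.22 FPKM. Its paralogue UCK1 did not pass (10.96 to 10.5 FPKM).

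Of 14 deoxynucleotide supply genes, 4 rose and 3 fell (2 and 6 after centring, 5 and 1 after rescaling), and the median of 0.06 fell below 0 after centring. SAMHD1, which breaks down deoxynucleotides in non-dividing myeloid cells, rose from 50.6 to 88.3 FPKM, and RRM2B, the ribonucleotide reductase subunit used outside S phase, from 4.25 to 7.96 FPKM. TYMS fell from 212 to 158 FPKM and RRM1 from 60.6 to 45.5 FPKM, while RRM2 was at 100.5 to 104 FPKM and did not pass. After rescaling, TYMS did not pass either (adjusted p = 0.0573). Of 13 coenzyme Q genes, 2 rose and 4 fell, and the median of -0.04 turned positive after rescaling. COQ2 and COQ3, which attach and methylate the ring, fell from 24.6 to 15.2 FPKM and from 23.7 to 12.6 FPKM, and COQ10B, a coenzyme Q-binding protein, rose from 7.52 to 14.7 FPKM.

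Most genes of purine synthesis and salvage fell. Of 18 tested genes, 0 rose and 15 fell (83.3%), with a median of -0.56 (0 and 11 after rescaling). In order along the pathway, the changes were -0.30 for PRPS1, -0.73 for PPAT, -0.54 for GART, -1.001 for PFAS, -1.03 for PAICS, -0.59 for ADSL and -0.24 for ATIC, the last of which did not pass. PRPS1 did not pass after rescaling (adjusted p = 0.173), nor did PRPS1 and GART in the fit of all 12 libraries (0.111 and 0.0841). IMPDH2, the proliferation-linked enzyme that commits IMP to GMP, stood at 334, 301 and 325 FPKM in DMSO and 102, 88.5 and 101 FPKM with ASLAN003. The treated libraries were all less than the lowest control, a change of -1.71 ± 0.0835 (adjusted p = 9.19e-07), against -0.60 for GMPS, the next enzyme. The salvage enzymes HPRT1 (from 99.5 to 40.4 FPKM), ADA (from 45.3 to 21.8 FPKM) and APRT (from 118 to 78.6 FPKM) fell too. For 6 members, IMPDH2, HPRT1, ADA, APRT, PNP and ADK, the change in KG-1 lay below that in MOLM-14 by the test of the difference, which called 10.4% of all genes. That call was lost for APRT without any 1 of 9 of the 12 libraries (adjusted p up to 0.0923) and for PNP without KG-1 DMSO replicate 1 (0.0516). ADK lost its KG-1 call without any 1 of the 6 libraries (adjusted p = 0.0683 to 0.151).

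**Figure D2:**
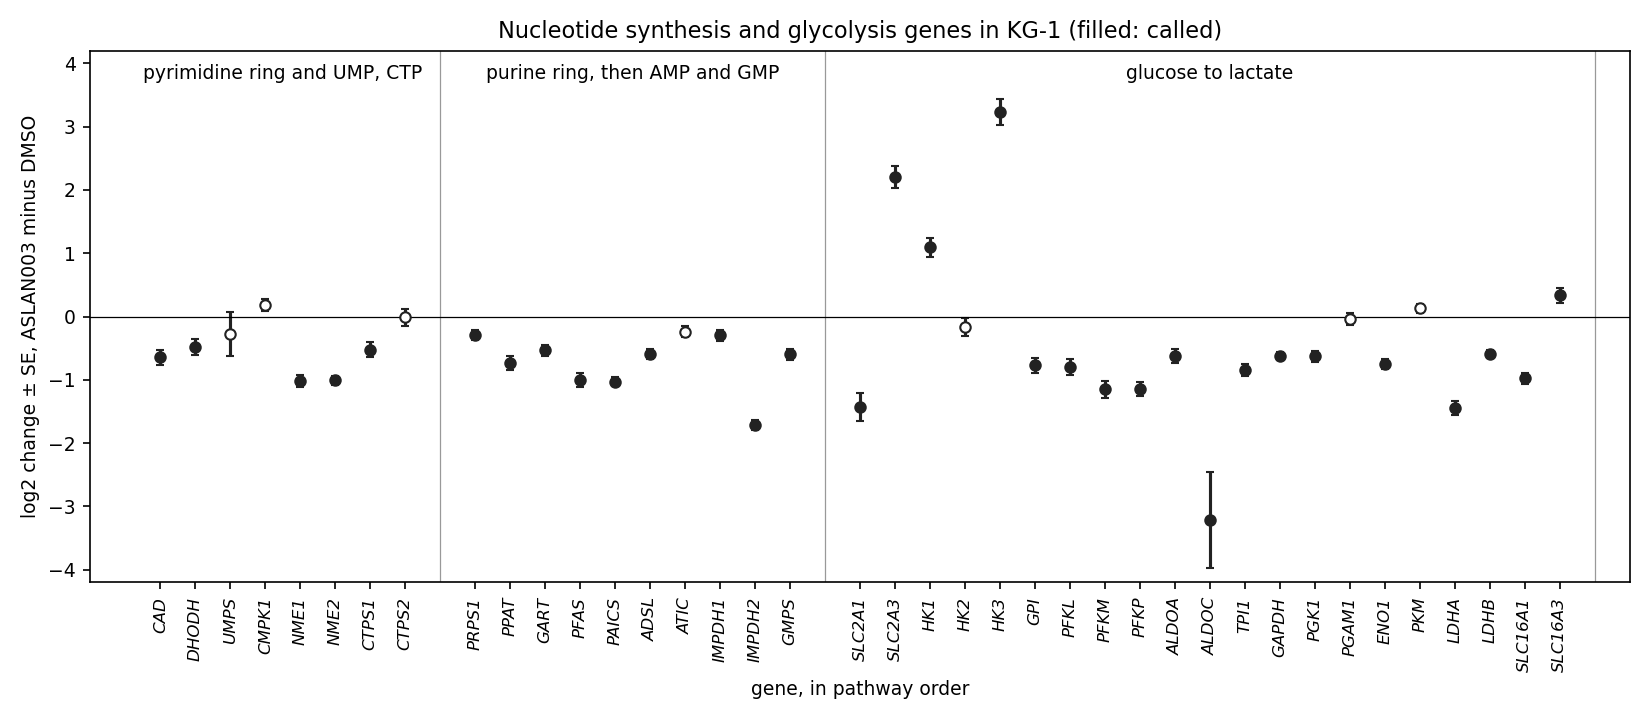
Log2 change (ASLAN003 minus DMSO) with its SE for genes of pyrimidine synthesis, purine synthesis and glycolysis in pathway order. Filled points passed and open points did not, and those above 0 by the test are SLC2A3, HK1, HK3 and SLC16A3, the last with a call that was lost without any 1 of 5 libraries.

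Regulators of the myeloid lineage rose more often than they fell. Of 29 transcription factor genes tested, 17 rose and 5 fell, with a median of 0.62, and 2 passed the level rule through 1 group alone. SPI1 (PU.1), the master factor of granulocytes and monocytes (ENSG00000066336.11, chromosome 11, 47354860 to 47378576, minus strand), stood at 131, 124 and 115 FPKM in DMSO and 260.5, 238 and 235 FPKM with ASLAN003, a change of 0.98 ± 0.0815 (adjusted p = 1.37e-05). CEBPE, needed for late granule proteins, stood at 50.2, 50.2 and 44.5 FPKM in DMSO and 127, 117 and 103 FPKM with ASLAN003. In both, all treated libraries lay above all controls. GFI1, a repressor that favours granulocytes over monocytes, rose from 55.9 to 92.5 FPKM and NFE2 from 19.2 to 56.2 FPKM. KLF4, a monocyte factor, rose from 1.82 to 7.92 FPKM. The repressor ID2 had the largest rise of the list, from 8.92 to 56.6 FPKM (2.55 ± 0.214), while its relative ID1 fell from 41.4 to 17.7 FPKM.

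The C/EBP factors did not move together. CEBPA, which starts the granulocyte programme, stood at 161, 158 and 145 FPKM in DMSO and 136, 115 and 116 FPKM with ASLAN003, a change of -0.34 ± 0.0898 (adjusted p = 0.0116) that was 0.0523 without DMSO replicate 1 and 0.121 after rescaling. CEBPB, linked to emergency and monocytic maturation, stood at 11.2, 11.6 and 16.7 FPKM in DMSO and 19.2, 18.5 and 17.8 FPKM with ASLAN003 (adjusted p = 0.0227), and its call was lost without DMSO replicate 1 or 2 or ASLAN003 replicate 1 or 2 (up to 0.088). CEBPD rose from 18.9 to 30.1 FPKM. MYB, a progenitor factor, fell from 192 to 154 FPKM and IRF8, a monocyte and dendritic factor, from 77.6 to 60.04 FPKM. The call of IRF8 was lost without DMSO replicate 1 or 2 or ASLAN003 replicate 2 (adjusted p up to 0.109). By the difference test, the changes of MYB and IRF8 lay below those in MOLM-14, and those of CEBPE and ID2 above. The difference call of MYB was lost without any 1 of 10 of the 12 libraries (adjusted p up to 0.115) and that of IRF8 without KG-1 DMSO replicate 1 (0.0512), and after rescaling the KG-1 change of MYB was -0.16 (0.0973). Of 11 tested HOXA genes and cofactors, 4 rose and 0 fell (2 and 0 without DMSO replicate 1), with a median of 0.22. MEIS1 was at 6.26, 5.79 and 6.28 FPKM in DMSO and 9.29, 10.1 and 9.34 FPKM with ASLAN003, and HOXA10 rose from 4.39 to 7.497 FPKM.

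The genes of the phagocyte NADPH oxidase rose as a set of unequal changes. The enzyme moves electrons from NADPH to oxygen and makes superoxide. CYBB encodes its catalytic membrane subunit and CYBA the partner, NCF1 and NCF4 cytosolic subunits, RAC2 the switch, and HVCN1 the proton channel that balances its charge. Of 10 tested genes, 8 rose and 0 fell, with a median of 1.25. Because the members moved together, the 250 bases before the RefSeq start site (GRCh38.p14) are shown for the 4 risen members matched by symbol in the promoter table. Capitals mark matches, on either strand, to GAGGAA, a core bound by PU.1 and other ETS factors (reverse complement TTCCTC), or to TTNNGNAA, a loose form of the C/EBP motif (reverse complement TTNCNNAA). No sequence held matches to both, so none overlapped.
CYBB (chrX:37779809-37780058, plus strand): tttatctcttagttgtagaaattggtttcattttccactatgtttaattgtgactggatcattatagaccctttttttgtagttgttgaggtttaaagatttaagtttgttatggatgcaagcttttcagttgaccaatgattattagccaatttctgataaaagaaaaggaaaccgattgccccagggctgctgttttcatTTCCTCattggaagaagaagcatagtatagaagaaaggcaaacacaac
NCF1 (chr7:74773761-74774010, plus strand): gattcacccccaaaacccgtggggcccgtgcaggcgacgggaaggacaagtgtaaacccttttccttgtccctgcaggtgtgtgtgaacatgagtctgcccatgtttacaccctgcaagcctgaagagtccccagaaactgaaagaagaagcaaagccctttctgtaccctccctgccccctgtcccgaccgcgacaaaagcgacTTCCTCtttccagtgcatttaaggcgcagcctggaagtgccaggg
VAV1 (chr19:6772458-6772707, plus strand): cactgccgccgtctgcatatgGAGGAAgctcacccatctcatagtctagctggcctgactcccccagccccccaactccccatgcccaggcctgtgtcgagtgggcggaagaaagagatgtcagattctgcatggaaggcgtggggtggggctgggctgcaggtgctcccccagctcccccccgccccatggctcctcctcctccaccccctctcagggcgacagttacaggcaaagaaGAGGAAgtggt
CYBA (chr16:88651054-88651303, minus strand): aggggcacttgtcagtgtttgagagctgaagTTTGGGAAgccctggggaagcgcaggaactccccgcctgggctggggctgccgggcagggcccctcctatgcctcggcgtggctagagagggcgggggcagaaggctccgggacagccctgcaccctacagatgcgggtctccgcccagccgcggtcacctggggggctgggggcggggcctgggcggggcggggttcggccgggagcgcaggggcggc

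GAGGAA matched once in CYBB and once in NCF1, both on the reverse strand, beginning 48 and 45 bases before the RefSeq start. It matched 2 times in VAV1 on the forward strand. For CYBB the RefSeq start lies past the gene start given below, so the match lies inside that gene model. In CYBA there was no match to it but 1 to TTNNGNAA. Over 27305 windows of the same length, 23.4% held GAGGAA and 33.6% TTNNGNAA, so a match is common and is a description, not a binding site. NCF4, HVCN1 and RAC2 also rose.

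CYBB (ENSG00000165168.7, chromosome X, 37780011 to 37813461, plus strand) stood at 6.91, 8.25 and 9.45 FPKM in DMSO and 164, 178 and 182 FPKM with ASLAN003. Every treated library was above every control, and the change was 4.26 ± 0.114 (adjusted p = 3.07e-08). Its membrane partner CYBA began from a far higher level, 255, 243 and 232 FPKM in DMSO and 381, 387 and 557 FPKM with ASLAN003, and changed by 0.83 ± 0.135 (adjusted p = 0.000829). Per length, mean levels of CYBA and CYBB were 244 and 8.2 FPKM in DMSO, and 442 and 175 FPKM with ASLAN003. NCF1 (p47phox) stood at 37.8, 43.0 and 48.3 FPKM in DMSO and 582, 531 and 608 FPKM with ASLAN003. The change was 3.71 ± 0.101, with no overlap of libraries. NCF1 is uncertain because reads can be divided with its near-identical copies NCF1B and NCF1C, which rose by 4.35 and 4.42. NCF4 (p40phox) rose from 22.5 to 102 FPKM and HVCN1 from 28.5 to 76.9 FPKM. VAV1, an exchange factor that loads RAC, rose from 49.4 to 108 FPKM, and RAC2, the RAC of blood cells, from 223 to 468 FPKM. RAC1, found in most cells, was at 203 to 221 FPKM and did not pass, nor did C17orf62 (EROS, a chaperone of the membrane subunits) at 83.5 to 90.3 FPKM. For all 8 risen members the change lay above that in MOLM-14 by the difference test, for CYBB by 3.76 ± 0.308 (adjusted p = 2.32e-05) and for CYBA by 0.82 ± 0.186 (adjusted p = 0.0153). The difference call of HVCN1 (adjusted p = 0.0414) was lost without any 1 of 10 of the 12 libraries (up to 0.102), and that of NCF4 without any 1 of 5 (up to 0.064).

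**Figure D3:**
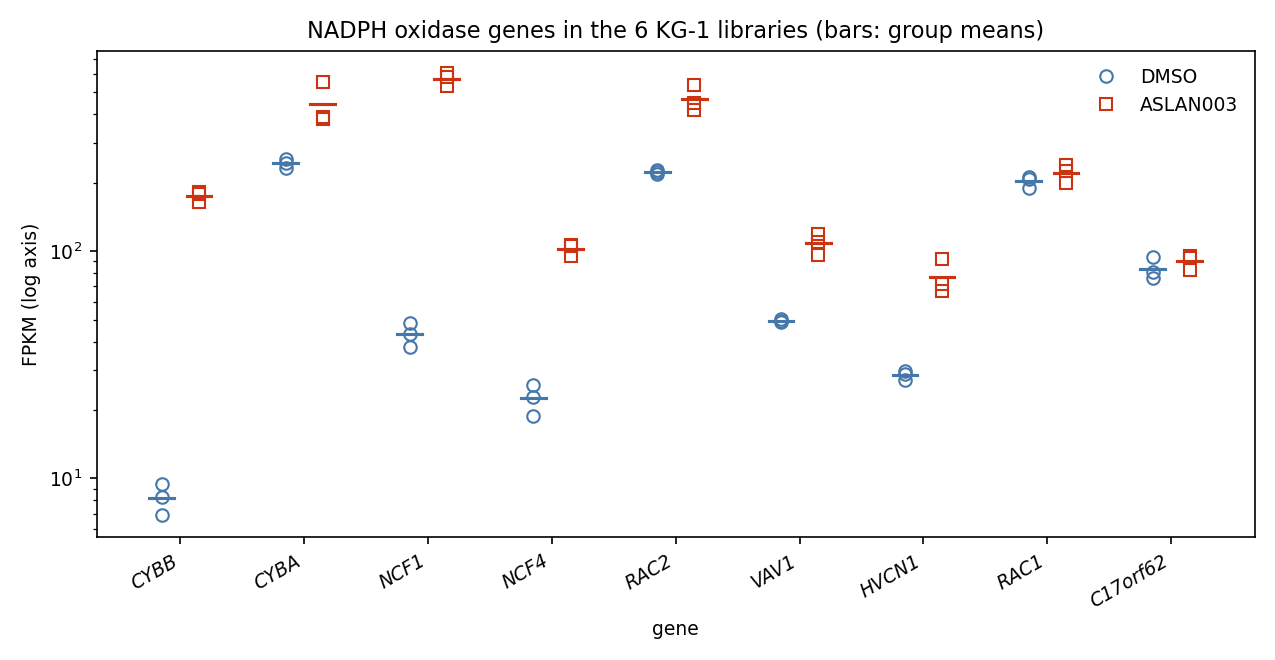
FPKM (log axis) of 9 oxidase genes in each of the 3 DMSO (circles) and 3 ASLAN003 libraries (squares) of KG-1, with group means as bars. The groups are apart for 7 genes and overlap for RAC1 and C17orf62.

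Granule genes moved both ways. Primary granule proteins are made by promyelocytes, and of 15 tested 6 rose and 4 fell, with a median of 0.48. ELANE, the neutrophil elastase gene, stood at 3018, 2701 and 3372 FPKM in DMSO and 862, 857 and 1168 FPKM with ASLAN003, a change of -1.66 ± 0.128 (adjusted p = 9.51e-06). PRTN3, its neighbour, stood at 4897, 4326 and 6377 FPKM in DMSO and 2093, 2134 and 4030.2 FPKM with ASLAN003. Here ASLAN003 replicate 3 was nearer the controls than the other treated libraries, and the call (adjusted p = 0.0442) was lost without any 1 of the other 5 libraries (0.0568 to 0.154). MPO fell by 2.05, and MS4A3, a marker of granulocyte-monocyte progenitors, fell from 199 to 133 FPKM.

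ASLAN003 replicate 3 stood apart for 2 further members of the serine protease family as well. CTSG, the cathepsin G gene, stood at 92.8, 91.8 and 84.4 FPKM in DMSO and 25.3, 24.4 and 72.2 FPKM with ASLAN003 and AZU1, the azurocidin gene, at 1449, 1246 and 1746 FPKM in DMSO and 898, 918 and 1676 FPKM with ASLAN003. Neither passed (adjusted p = 0.0598 and 0.274), and both did without ASLAN003 replicate 3 (1.29e-06 and 0.00217). Of the risen members, BPI, a bactericidal protein, stood at 48.1, 40.4 and 45.5 FPKM in DMSO and 297, 334 and 406 FPKM with ASLAN003, and LYZ rose by 3.19. CTSC, which activates the serine proteases, rose from 88.8 to 153 FPKM, SERPINB1, which inhibits them, from 43.6 to 130.1 FPKM, and RNASE3, an eosinophil ribonuclease, from 21.03 to 45.2 FPKM.

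Of 9 tested genes of specific and gelatinase granules and late neutrophils, 7 rose and 0 fell, with a median of 2.01. Of the 24 genes in this list, 11 were present in the data, and CEACAM6 and TCN1 among them missed the level rule. CEACAM6 was lower with ASLAN003 (0.07, 0.11 and 0.13 FPKM) than in DMSO (1.02, 1.25 and 0.86 FPKM), and TCN1 reached at most 0.35 FPKM. PADI4, which citrullinates histones, stood at 4.97, 9.45 and 7.29 FPKM in DMSO and 195, 177 and 280.0 FPKM with ASLAN003, and MMP9, the gelatinase itself, at 27.8, 23.8 and 14.9 FPKM in DMSO and 464, 373 and 764 FPKM with ASLAN003. For both, the lowest treated library was many times the highest control. HP, haptoglobin, stood at 20.1, 19.5 and 21.7 FPKM in DMSO and 265, 272 and 379 FPKM with ASLAN003, and CAMP, the cathelicidin gene of specific granules, rose from 3.25 ± 2.35 to 28.2 ± 7.71 FPKM. MMP25, a membrane-bound protease of neutrophils, rose from 1.18 to 8.203 FPKM, SLPI, an elastase inhibitor, from 32.9 to 128 FPKM, and CSF3R, the G-CSF receptor, from 54.5 to 98.4 FPKM. CHI3L1 did not pass at 906 to 949 FPKM, nor did ORM1 at 161 to 97.2 FPKM. Without DMSO replicate 3, ORM1 passed (adjusted p = 0.0155).

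Calcium-binding S100 genes rose almost throughout. Of 11 tested, 10 rose and 0 fell, with a median of 1.63. S100A12, a phagocyte S100 protein like the calprotectin pair, stood at 5.5, 4.11 and 4.71 FPKM in DMSO and 167, 154 and 205 FPKM with ASLAN003, a change of 4.93 ± 0.132 (adjusted p = 3.07e-08). S100A8 and S100A9 together took 0.104% to 0.148% of listed FPKM in DMSO and 3.76% to 4.26% in ASLAN003. Outside the phagocyte trio, S100A4 rose from 324 to 1106 FPKM, S100A6 from 148 to 388 FPKM, S100A10, the partner of annexin A2, from 46.4 to 146 FPKM, and S100A11 from 386 to 845 FPKM. The difference from MOLM-14 was called for S100A12 but for none of the other 10. Without MOLM-14 ASLAN003 replicate 1 it was also called for S100A8 and S100A9 (adjusted p = 3.37e-05 and 0.00325), and without KG-1 ASLAN003 replicate 3 for S100A13 (0.0207). Annexins, which bind membranes in the presence of calcium, rose in 5 of 9 cases and fell in 0, with a median of 0.31. ANXA1, an anti-inflammatory protein of neutrophils, rose from 17.9 to 79.6 FPKM and ANXA3 from 3.35 to 12.5 FPKM. ANXA2 (92.6 to 99.6 FPKM) and ANXA6 (116 to 121 FPKM) did not pass.

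Adhesion genes rose too. Of 17 tested leukocyte integrin and adhesion genes, 15 rose and 1 fell, with a median of 1.68. The common β2 chain ITGB2 rose from 234 to 759 FPKM, and 3 α chains that pair with it rose from lower levels: ITGAX (CD11c) stood at 4.03, 4.73 and 4.84 FPKM in DMSO and 82.5, 68.5 and 105 FPKM with ASLAN003, ITGAM (CD11b) changed by 3.97, and ITGAL (CD11a) rose from 11.1 to 49.5 FPKM. The DMSO level of ITGB2 thus lay above those of its partners, as CYBA lay above CYBB. ITGB7, a β chain of gut homing, rose from 14.1 to 118 FPKM, PECAM1, which guides passage between endothelial cells, from 28.6 to 199 FPKM, and ICAM3 from 74.8 to 274 FPKM. ITGA4 was at 57.5 to 62.8 FPKM and did not pass. ITGA5, the fibronectin receptor chain, fell from 46.9 to 37.4 FPKM, a call lost without DMSO replicate 3 or ASLAN003 replicate 1 or 2 (adjusted p up to 0.081).

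Most genes of activating receptors and their signalling rose. Of 23 tested Fc receptor and ITAM signalling genes, 19 rose and 2 fell, with a median of 0.99. FCAR, the IgA receptor, stood at 4.45, 3.34 and 11.4 FPKM in DMSO and 84.7, 93.7 and 104 FPKM with ASLAN003, a change of 3.83 ± 0.385 (adjusted p = 0.000417). The adaptors that carry the signalling motif, TYROBP and FCER1G, stood at 25.2, 31.8 and 21.3 FPKM in DMSO and 184, 171 and 311 FPKM with ASLAN003, and at 65.3, 75.2 and 74.8 FPKM in DMSO and 452, 483 and 495 FPKM with ASLAN003. For the 3 genes no treated library was near a control. The Src family kinases FGR and LYN rose from 5.08 to 55.2 FPKM and from 20.1 to 35.9 FPKM, SYK, which docks to the motif, from 31.7 to 64.5 FPKM, and the phosphatases INPP5D and PTPN6, which oppose them, from 71.7 to 149 FPKM and from 86.1 to 163 FPKM. BTK, a kinase more prominent in B cells, fell from 74.2 to 61.1 FPKM, and TREM2, a macrophage and microglial receptor, from 3.68 to 1.53 FPKM. The call of BTK was lost after rescaling (-0.13, adjusted p = 0.219) and in the fit of all 12 libraries (0.0966). FCGR1A and FCGR1B rose by 1.17 and 0.81, and both are uncertain because they are near-identical copies.

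Inhibitory and lectin receptors rose from a wide range of levels. Of 17 tested, 15 rose and 0 fell, with a median of 2.00, but 8 passed the level rule through 1 group alone, and 8 rose at a minimum of 5 FPKM. SIGLEC5, a sialic acid receptor, was at 0, 0 and 0.2 FPKM in DMSO and 10.8, 8.98 and 10.1 FPKM with ASLAN003, and CD300LF at 0.34, 0.82 and 0.4 FPKM in DMSO and 10.1, 8.51 and 8.85 FPKM with ASLAN003. SIGLEC9 stood at 0.3, 0.39 and 0.28 FPKM in DMSO and 6.15, 6.2 and 6.77 FPKM with ASLAN003. The 3 genes were near or below 1 FPKM in every control. Reads of SIGLEC5 and SIGLEC14 may be shared, since the genes are near-identical over part of their length. PILRA, with a measurable start, rose from 5.53 to 55.6 FPKM, LILRA2 from 25.4 to 118 FPKM and LAIR1, a collagen receptor, from 158 to 279 FPKM. CD33 was at 26.5 to 26.2 FPKM and did not pass.

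Microbial sensors rose in 17 of 20 cases and fell in 0, with a median of 1.03, and 2 passed the level rule through 1 group alone. TLR4, the receptor of endotoxin, stood at 1.92, 2.07 and 3.21 FPKM in DMSO and 10.7, 10.3 and 11.8 FPKM with ASLAN003, TLR1 rose from 1.75 to 12.99 FPKM, TLR6 from 2 to 9.14 FPKM and TLR2, with which both pair, from 5.37 to 13.7 FPKM. NLRP12, a myeloid regulator, had the largest rise, 0.86, 0.61 and 0.82 FPKM in DMSO and 18.6, 16.3 and 22.7 FPKM with ASLAN003. It was below 1 FPKM in every control and passed the level rule through ASLAN003 alone, so it had to differ. Inflammasome genes rose by less: NLRC4 from 1.14 to 7.19 FPKM, CASP1 from 15.8 to 41.01 FPKM, PYCARD, the adaptor, from 94.2 to 170.0 FPKM, GSDMD, the pore former, from 24.2 to 33.5 FPKM, and NLRP3 from 31.8 to 42.5 FPKM. GSDMD did not pass in the fit of all 12 libraries (adjusted p = 0.0831). IRAK1 and IRAK4, kinases downstream of the receptors, were at 137 to 141 FPKM and 11.7 to 13.2 FPKM and did not pass, while the inhibitory IRAK3 rose from 15.6 to 23.4 FPKM.

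Most receptors for chemoattractants rose. Of 19 tested, 12 rose and 3 fell, with a median of 1.14, and 2, C5AR1 among them, passed the level rule through 1 group alone. The formyl peptide receptors FPR1 and FPR2 stood at 0.43, 1.6 and 0.53 FPKM in DMSO and 22.01, 17.2 and 37.6 FPKM with ASLAN003, and at 1.81, 1.37 and 1.74 FPKM in DMSO and 31.3, 29.8 and 31.6 FPKM with ASLAN003. The complement receptor C5AR1 stood at 0.1, 0.27 and 0.3 FPKM in DMSO and 11.2, 10.6 and 13.3 FPKM with ASLAN003. All 3 were at or below 2 FPKM in the controls, and no treated library came near them. CXCR2, the interleukin-8 receptor of neutrophils, rose from 4.01 to 13.3 FPKM, CCR1 from 3.18 to 13.7 FPKM and CXCR4, which retains cells in marrow, from 24.4 to 49.3 FPKM. CCR7, a lymph node homing receptor, fell from 26.9 to 13.97 FPKM, CCR2, a receptor of inflammatory monocytes, from 39.98 to 29.9 FPKM, and LTB4R2 from 9.02 to 6.46 FPKM, a call lost without DMSO replicate 2 (adjusted p = 0.0577). CCR2 and LTB4R2 did not pass after rescaling (adjusted p = 0.0652 and 0.0807). Nor did CCR7 and LTB4R2 in the fit of all 12 libraries (0.0541 and 0.087). The ligand of CCR2, CCL2, was the second-largest rise of all named genes, 3.78, 4.12 and 4.16 FPKM in DMSO and 171, 140.1 and 270.5 FPKM with ASLAN003.

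Of 16 tested chemokine and cytokine genes, 14 rose and 1 fell, with a median of 1.65, and 3 passed the level rule through 1 group alone. CCL5 rose from 45.99 to 235 FPKM, LTB, a lymphotoxin chain, from 4.63 to 52.9 FPKM, TNF from 0.57 to 5.65 FPKM and TGFB1 from 15.6 to 34.8 FPKM. IL1RN, the interleukin-1 receptor antagonist, rose from 6.42 to 19.96 FPKM from a higher start than IL1B (0.573 to 8.98 FPKM). IL18 did not pass at 9.403 to 8 FPKM, and VEGFA, an angiogenic factor induced by hypoxia, fell from 55.3 to 43.3 FPKM. The call of VEGFA was lost without DMSO replicate 3 or ASLAN003 replicate 2 (adjusted p up to 0.0966). CCL3 rose by 2.86 but has near-identical copies.

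Genes that start leukotriene synthesis rose. Of 13 tested genes of eicosanoids and lipid mediators, prostaglandin genes included, 7 rose and 1 fell, with a median of 0.71. Of these 13, 2 passed the level rule through 1 group alone, and at a minimum of 5 FPKM 4 rose and 1 fell. PLA2G4A, which frees arachidonate, rose from 8.003 to 17.8 FPKM. ALOX5, the 5-lipoxygenase gene, stood at 20.4, 16.9 and 23.6 FPKM in DMSO and 101, 97.5 and 161 FPKM with ASLAN003, and its activating protein ALOX5AP at 46.5, 39.0 and 47.9 FPKM in DMSO and 480.4, 442 and 336 FPKM with ASLAN003, each without overlap. LTA4H, the hydrolase that makes leukotriene B4, fell from 29.8 to 21.04 FPKM. PTGS1 (COX-1), of the prostaglandin branch, rose from 0.493 to 4.98 FPKM. Of 6 tested MHC class II pathway genes, 4 rose and 0 fell. IFI30, a lysosomal thiol reductase, rose from 6.34 to 64.9 FPKM and the protease CTSS from 50.4 to 148 FPKM. HLA-DRA was at 0.54, 0.15 and 1.78 FPKM in DMSO and 1.29, 1.04 and 2.46 FPKM with ASLAN003 and did not pass, although it passed without DMSO replicate 3 (adjusted p = 0.0326).

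Actin and motility genes gave one of the highest shares of the 40 lists, with 37 of 40 higher (92.5%), 0 lower and a median of 0.67. TMSB4X, which holds actin monomers, stood at 2475, 2335 and 2337 FPKM in DMSO and 5252, 5598 and 6017 FPKM with ASLAN003. CORO1A, which recycles actin branches, stood at 234, 221 and 213 FPKM in DMSO and 674, 586 and 748 FPKM with ASLAN003, and LSP1, a leukocyte F-actin protein, at 80.4, 78.01 and 48.9 FPKM in DMSO and 226, 199 and 309.6 FPKM with ASLAN003. CAPG and GSN, which cap and sever filaments, rose from 289 to 834 FPKM and from 36.7 to 95.8 FPKM. Subunits of the branching complex ARP2/3 rose by 0.80 (ARPC5), 0.74 (ARPC1B), 0.72 (ARPC3) and 0.21 (ARPC4), while ARPC1A, an isoform of ARPC1B, was at 38.4 to 33.8 FPKM and did not pass. ACTB rose from 3821 to 4748 FPKM, and ACTG1 did not pass (2164 to 2233 FPKM). Both depended on scaling. After quantile normalization they rose by 0.69 and 0.79 (adjusted p = 0.000266 and 3.59e-05), and after centring ACTB did not pass (0.181). The call of ACTB was lost without DMSO replicate 2 or 3 or ASLAN003 replicate 1 or 3 (adjusted p up to 0.0905), and that of ARPC4 without any 1 library other than ASLAN003 replicate 2 (up to 0.116).

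Lysosomal genes rose in 41 of 50 cases (82.0%) and fell in 1, with a median of 0.68. GRN, the progranulin gene, stood at 314, 285 and 277 FPKM in DMSO and 1350.2, 1130.5 and 1433 FPKM with ASLAN003, a change of 2.15 ± 0.0975 (adjusted p = 6.15e-07). The aspartic protease CTSD stood at 158, 132 and 164 FPKM in DMSO and 513, 424 and 677 FPKM with ASLAN003 and the cysteine protease CTSB at 28.99, 28.9 and 35.1 FPKM in DMSO and 76.5, 76.3 and 103 FPKM with ASLAN003, with no overlap. TFEB and TFE3, which switch on lysosomal genes, rose from 5.38 to 22.9 FPKM and from 14.5 to 29.02 FPKM. Of the proton pump, ATP6V0D1 rose from 33.7 to 74.5 FPKM, ATP6V1B2 from 25.6 to 48.8 FPKM and ATP6V1A from 19.1 to 36.3 FPKM. NPC2 (39.4 to 39.7 FPKM) and LIPA (37.8 to 35.3 FPKM), which handle cholesterol in the lysosome, did not pass.

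Of 36 autophagy genes, 21 rose and 2 fell, with a median of 0.45. The cargo receptor SQSTM1 (p62) stood at 44.8, 40.6 and 49.8 FPKM in DMSO and 142, 109 and 111 FPKM with ASLAN003, and MAP1LC3B, a membrane tag, rose from 12.3 to 30.6 FPKM, although reads may be shared with its copy MAP1LC3B2. WIPI1 and GABARAPL1 rose from 3.52 to 13.4 FPKM and from 2.97 to 9.56 FPKM, ULK1, the starting kinase, from 18.04 to 33.6 FPKM, and BECN1 did not pass (94.5 to 109 FPKM). RAB GTPases, which route vesicles, rose in 18 of 35 cases and fell in 0, with a median of 0.36. RAB37 was at 0.37, 0.47 and 0.57 FPKM in DMSO and 12.6, 11.7 and 20.2 FPKM with ASLAN003, and so passed the level rule through ASLAN003 alone. RAB27A, which docks secretory granules, rose from 35.4 to 69.4 FPKM.

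**Figure D4:**
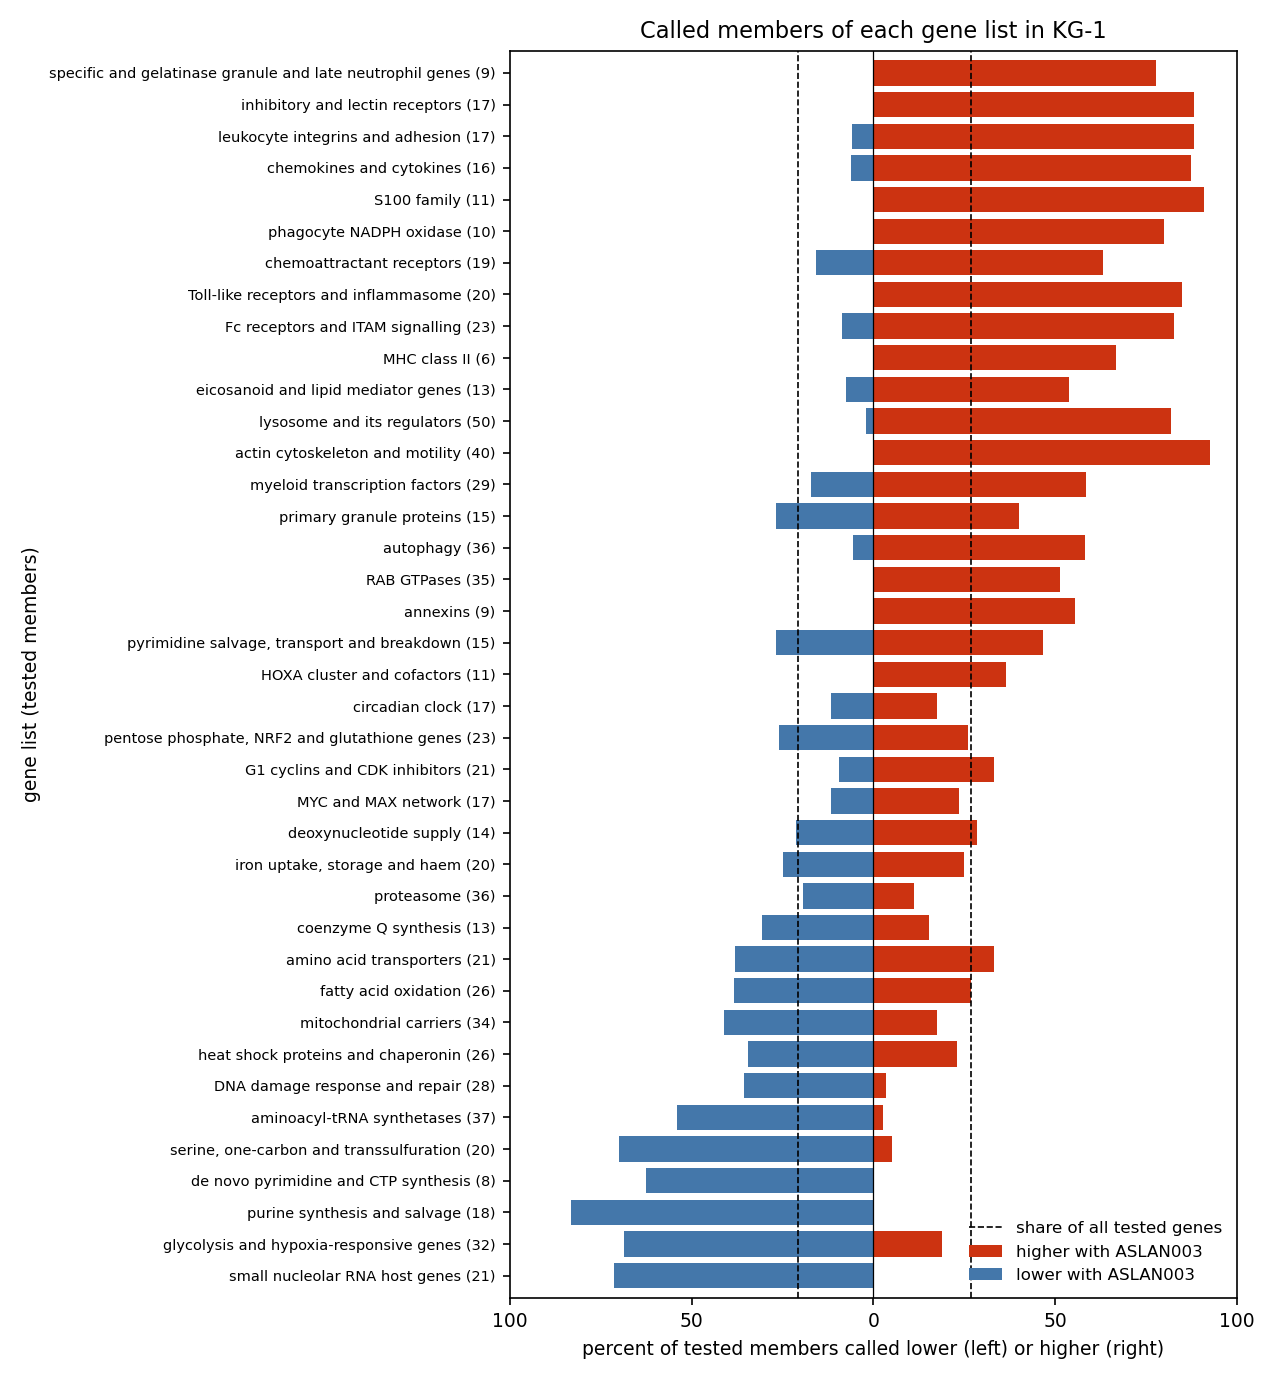
For 39 gene lists (tested members in brackets), the percent of members called higher (red, right) and lower (blue, left), ordered by median log2 change. Dashed lines mark the shares over all tested genes, 26.9% higher and 20.8% lower, and the lists run from small nucleolar RNA host genes (71.4% lower) at the bottom to late neutrophil genes (77.8% higher) at the top.

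Most genes of glycolysis and the hypoxia response fell. Of 32 glycolysis and hypoxia-responsive genes, 6 rose and 22 fell (68.8%), with a median of -0.63. LDHA, which makes lactate, stood at 1624, 1353 and 1368 FPKM in DMSO and 485, 487 and 628 FPKM with ASLAN003, a change of -1.45 ± 0.115 (adjusted p = 1.08e-05), and GAPDH at 4231, 3802 and 3977 FPKM in DMSO and 2644, 2515 and 2640.2 FPKM with ASLAN003. Both had every treated library below every control, but the change of GAPDH was 0.0033 after quantile normalization (adjusted p = 0.967). All of PFKL, PFKM and PFKP, the subunits of the committing kinase, fell, by 0.80, 1.15 and 1.15. PKM and PGAM1 were at 528 to 577 FPKM and 628 to 613 FPKM and did not pass. Among isoforms, the glucose transporter SLC2A1 fell from 65.2 to 24.3 FPKM, while SLC2A3, the high-affinity form, stood at 4.99, 4.58 and 5.11 FPKM in DMSO and 25.6, 20.2 and 34.5 FPKM with ASLAN003. HK3, the hexokinase of leukocytes, stood at 4.69, 4.3 and 5.59 FPKM in DMSO and 52.2, 40.2 and 74.3 FPKM with ASLAN003, HK1 rose from 4.44 to 10.7 FPKM, and HK2 was at 28.6 to 25.8 FPKM and did not pass. SLC16A3, which exports lactate, rose by 0.33 (adjusted p = 0.0429), a call lost without any 1 library other than ASLAN003 replicate 2 (up to 0.156), after centring (0.202) and in the fit of all 12 libraries (0.0846).

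HIF1A, the oxygen-regulated transcription factor gene, rose from 25.9 to 40.8 FPKM. PDK1 fell from 15.8 to 5.89 FPKM, the mitophagy gene BNIP3 from 70.3 to 14.9 FPKM, PFKFB4 from 21.3 to 5.84 FPKM and ANKRD37 from 5.49 to 2.62 FPKM, while PFKFB3 rose from 8.18 to 14.1 FPKM. ALDOC had the largest fall, 111, 78.2 and 102 FPKM in DMSO and 4.82, 5.3 and 30.1 FPKM with ASLAN003. ASLAN003 replicate 3 lay between the other treated libraries and the controls, and the call (adjusted p = 0.0256) was lost without any 1 of the other 5 libraries (0.0651 to 0.0815), with a change of -4.0 without that library.

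Members of the pentose phosphate branch, which supplies NADPH to the oxidase, moved both ways. PGD, which makes NADPH there, rose from 312 to 575 FPKM and TKT from 556 to 914 FPKM, but TALDO1 (log2 change 0.10) did not pass and RPIA fell from 36.4 to 28.98 FPKM. The list they belong to, with NRF2 and glutathione genes, had 6 of 23 higher and 6 lower (26.1% each), near the shares over all genes. Its median of 0.10 fell below 0 after centring. NQO1 (6.68 to 9.03 FPKM) and GCLM (11.2 to 11.4 FPKM), targets of NRF2, did not pass. The call of RPIA was lost without DMSO replicate 1 or 2 or ASLAN003 replicate 1 (adjusted p up to 0.0764). TXN fell from 361 to 248 FPKM and PRDX1 from 310.5 to 239.9 FPKM, though PRDX1 did not pass after rescaling (adjusted p = 0.0701).

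Genes that feed one-carbon units to purines and thymidylate mostly fell. Of 20 serine, one-carbon and transsulfuration genes, 1 rose and 14 fell, with a median of -0.43 (2 and 9 after rescaling). MTHFD1L, a mitochondrial formate producer, stood at 35.4, 35.1 and 36.3 FPKM in DMSO and 11.2, 9.65 and 9.77 FPKM with ASLAN003, and PHGDH and PSAT1, which make serine, fell from 44.5 to 15.8 FPKM and from 32.6 to 16.5 FPKM. AHCY, which clears the product of methylation, fell from 380.3 to 165 FPKM. Of 37 aminoacyl-tRNA synthetase genes, 1 rose and 20 fell, with a median of -0.41. EPRS fell from 102 to 50.5 FPKM, while WARS (56.97 to 68.6 FPKM), inducible by interferon, did not pass. Of 21 amino acid transporters, 7 rose and 8 fell, and the median of -0.05 turned positive after rescaling. SLC7A5, the carrier of large neutral amino acids, fell from 38.9 to 18.6 FPKM and SLC38A5 from 74.7 to 27.3 FPKM, whereas SLC43A2, another neutral carrier, rose from 3.58 to 17.5 FPKM and SLC7A7 from 2.31 to 7.59 FPKM.

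Host genes of small nucleolar RNAs had the lowest median of the 40 lists, -0.80, with 0 of 21 higher and 15 lower. Many of their transcripts begin with the same motif as those of ribosomal proteins, and their introns hold RNAs that guide ribosomal RNA modification. SNHG5 stood at 1201, 1174 and 1409 FPKM in DMSO and 235, 166 and 216 FPKM with ASLAN003, and GAS5 at 599, 595 and 724 FPKM in DMSO and 276, 206 and 197 FPKM with ASLAN003. The treated libraries were far below the controls for both. SNHG8 fell from 152 to 67.7 FPKM, SNHG1 from 182 to 100.5 FPKM and ZFAS1 from 356 to 211 FPKM, while SNHG12 (24.99 to 22.4 FPKM) and SNHG20 (4.34 to 4.38 FPKM) did not pass.

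Folding and degradation genes showed no direction that held across scalings. Of the proteasome list, 11.1% rose and 19.4% fell, below the shares over all genes, and of the heat shock list 23.1% and 34.6%. Of 26 heat shock and chaperonin genes, 6 rose and 9 fell, with a median of -0.15 (4 and 14 after centring, 8 and 5 after rescaling). HSPA5, the endoplasmic reticulum chaperone, rose from 145 to 245 FPKM, and HSPD1 and HSPE1, the mitochondrial pair, fell from 613 to 377 FPKM and from 464 to 292 FPKM. Of 36 proteasome genes, 4 rose and 7 fell (2 and 13 after centring, 11 and 2 after rescaling, 2 and 2 without DMSO replicate 1), and the median of -0.04 turned positive after rescaling. PSMB9, an immunoproteasome subunit, stood at 15.6, 13.7 and 13.1 FPKM in DMSO and 43.4, 39.8 and 42.3 FPKM with ASLAN003, whereas PSMB8, its partner, was at 93.02 to 91.9 FPKM and did not pass.

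Among G1 regulators, 7 of 21 rose and 2 fell, and the median of 0.09 fell below 0 after centring and quantile normalization. CCND3, a D-type cyclin, stood at 112, 105 and 103 FPKM in DMSO and 418, 396 and 314 FPKM with ASLAN003. Its kinase CDK4 fell from 178 to 122 FPKM, CDK6 did not pass (25.4 to 24.1 FPKM), and the inhibitor CDKN2D rose from 15.5 to 26.4 FPKM while CDKN1B fell from 24.04 to 18.4 FPKM. The call of CDKN1B was lost without DMSO replicate 2 (adjusted p = 0.0503). MYC stood at 162, 154 and 128 FPKM in DMSO and 58.2, 48.1 and 72.9 FPKM with ASLAN003, a change of -1.31 ± 0.147 (adjusted p = 9.11e-05), and its partner MAX was at 42.7 to 39.1 FPKM and did not pass. MXD1 and MXD4, which compete with MYC for MAX, rose from 3.41 to 9.95 FPKM and from 12.01 to 22.1 FPKM. In a list of other genes of the MYC and MAX network, which leaves out MYC itself, 4 of 17 rose and 2 fell, RUVBL1 and RUVBL2, and the median of 0.08 fell below 0 after centring and quantile normalization.

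Of 28 DNA repair genes, 1 rose and 10 fell, with a median of -0.15. PARP1, which marks strand breaks, fell from 261 to 166 FPKM and XRCC3, of recombination, from 23.1 to 12.6 FPKM, while ATM (12.5 to 11.5 FPKM) and ATR (12.5 to 13.5 FPKM) did not pass.

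Mitochondrial carriers fell in 14 of 34 cases and rose in 6. The phosphate carrier SLC25A3 fell from 516 to 282 FPKM, the ATP/ADP carriers SLC25A5 and SLC25A6 from 524 to 377 FPKM and from 221 to 122 FPKM, and UCP2 from 168 to 86.5 FPKM, and the list's median of -0.14 reached 0.0 after rescaling. SLC25A20, which admits acylcarnitine, rose from 2.5 to 9.83 FPKM. In fatty acid oxidation, where 7 of 26 rose and 10 fell (9 and 6 after rescaling, 7 and 6 without DMSO replicate 1), the fatty acid uptake gene CD36 was at 0.98, 0.49 and 0.28 FPKM in DMSO and 12.4, 12.4 and 18.5 FPKM with ASLAN003, and ACSL1 rose from 12.01 to 30.2 FPKM, but HADH, of the oxidation cycle, fell from 56.1 to 26.5 FPKM. CD36 passed the level rule through ASLAN003 alone. Of 20 iron and haem genes, 5 rose and 5 fell. SLC11A1, the phagosomal metal pump, rose from 1.21 to 7.53 FPKM, ALAS1, which starts haem synthesis, from 49.5 to 159 FPKM, and FTH1, an iron store, from 459 to 784 FPKM, while the transferrin receptor TFRC fell from 169 to 99.2 FPKM. The medians of both lists were within 0.10 of 0 and changed sign with scaling, as did that of 17 clock genes, of which 3 rose and 2 fell. CIART, a clock repressor, fell from 5.6 to 1.43 FPKM.

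Some of the 20 largest rises and 20 largest falls belonged to no list. BCL2A1, an anti-apoptotic protein of neutrophils, stood at 0.89, 1.89 and 1.1 FPKM in DMSO and 27.5, 28.2 and 40.1 FPKM with ASLAN003. CRISPLD2, a secreted protein, rose from 0.26 to 18.6 FPKM, HCST (DAP10), a signalling adaptor, from 3.06 to 49.6 FPKM, and FAM65B from 0.643 to 22.7 FPKM. With a mean of 0.26 FPKM in DMSO, CRISPLD2 passed the level rule through ASLAN003 alone, so it had to differ. FAM65B too had a DMSO mean below 1 FPKM. SFTPB, a lung surfactant protein gene, stood at 0.95, 3.74 and 0.97 FPKM in DMSO and 61.6, 58.2 and 27.96 FPKM with ASLAN003. Among the falls, GAS6, a ligand of TAM receptors, stood at 31.1, 28.9 and 24.6 FPKM in DMSO and 3.18, 2.39 and 6.23 FPKM with ASLAN003, LPO, a peroxidase, fell from 24.3 to 4.52 FPKM, SCD, a fatty acid desaturase, from 502 to 113 FPKM, and PPP1R1B from 230.0 to 41.8 FPKM. The sterol genes INSIG1 (173 to 39.96 FPKM) and HMGCS1 (273 to 64.03 FPKM) fell as well. SLX1B, SMIM11B, CKMT1A and CKMT1B also fell, and are uncertain because each has a near-identical copy.

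The change in KG-1 was then set against that in MOLM-14, in 1 fit of all 12 libraries, with a test of the difference itself. It called 1331 of 12785 genes (10.4%), with 680 differences above 0 and 651 below (765 genes without KG-1 DMSO replicate 1, 2366 without MOLM-14 ASLAN003 replicate 1). These genes had met the level rule in KG-1, whatever their level in MOLM-14. A gene silent in MOLM-14 could thus be called through its change in KG-1 alone, and the list counts include such genes. By share of tested members, the lists with the most differences above 0 were the oxidase (8 of 10), integrins and adhesion (10 of 17), chemokines and cytokines (9 of 16) and late neutrophil genes (5 of 9). Below 0 they were glycolysis and hypoxia (9 of 32), MHC class II (2 of 6) and purine synthesis (6 of 18). The MHC class II list also had 2 of 6 above 0, so it leaned to neither side. Its calls for HLA-DRA and HLA-DMA (below 0) and IFI30 (above 0) were lost without some single libraries (adjusted p up to 0.0855, 0.0586 and 0.0989). The S100 list (1 of 11) and the proteasome list (1 above and 1 below of 36) had no larger share of calls than the 10.4% of all genes. That does not show that the lines were alike. In the actin list 5 of 40 were called, all above 0, a share slightly above that of all genes.

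CCL2 had the largest difference of the named genes. In MOLM-14 it was at 0, 0.1 and 0.1 FPKM in DMSO and 0, 0 and 0 FPKM with ASLAN003, a change of -0.09, so the difference was 5.31 ± 0.297 (adjusted p = 1.58e-06). FCAR, SFTPB and SFRP5 were listed at 0 in all 6 MOLM-14 libraries, so their differences are those of KG-1. PADI4 was at 0.42, 1.12 and 1.6 FPKM in DMSO and 4.01, 0.65 and 2.04 FPKM with ASLAN003 in MOLM-14, and its difference was 4.17 ± 0.513 (adjusted p = 0.000514). CKMT1B reached at most 0.03 FPKM in MOLM-14, where no fall could be measured. CIART fell in KG-1 and was at 0.05, 0.35 and 0.04 FPKM in DMSO and 1.49, 5.59 and 0.71 FPKM with ASLAN003 in MOLM-14, a change of 1.42. Of the 143 named genes whose difference passed, 35 had estimates of opposite sign in the 2 lines. This counts signs only, among genes partly chosen for large KG-1 changes, and was not counted over all genes. Some MOLM-14 estimates were near 0, as for SLC2A3 (-0.01), ID2 (-0.03) and CEBPE (-0.09), where the sign carries no weight. Others were not, as for UCP2 (-0.96 in KG-1 and 1.14 in MOLM-14). TBC1D30 fell by 2.13 in KG-1, and its change in MOLM-14 was -2.13.

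**Figure D5:**
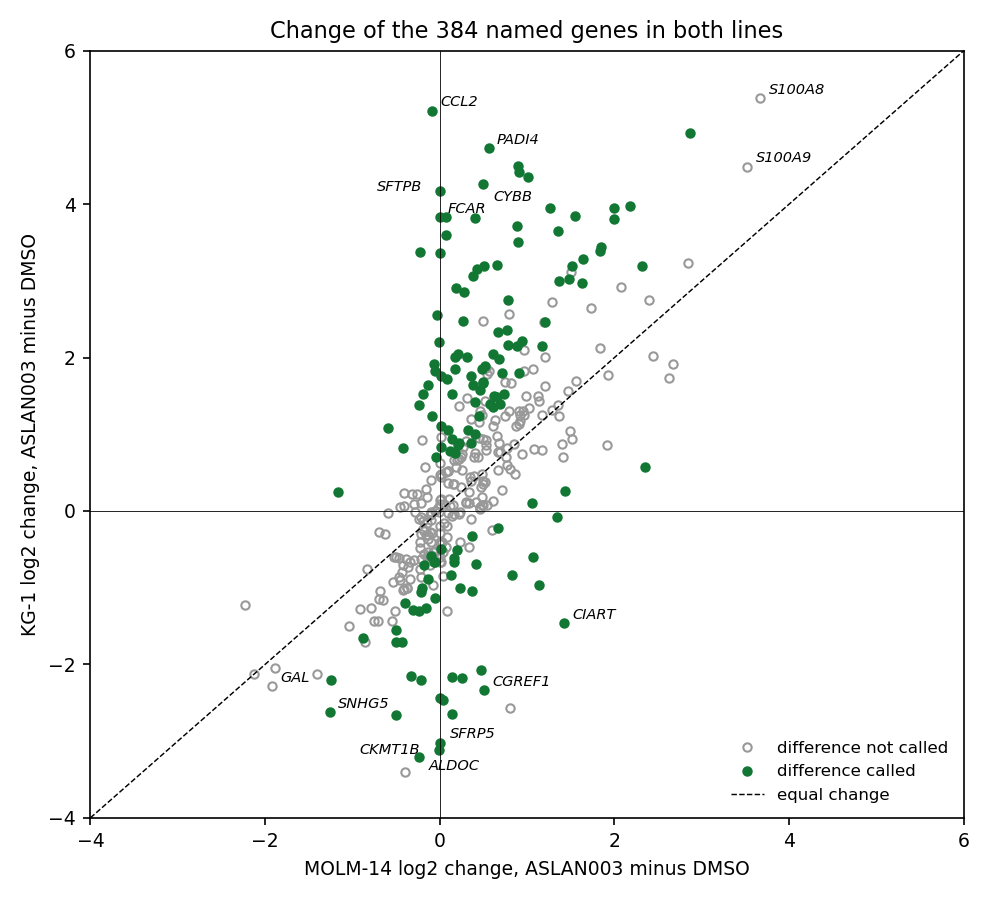
Log2 change (ASLAN003 minus DMSO) in MOLM-14 on the horizontal axis and in KG-1 on the vertical axis for the 384 named genes, with filled points where the difference passed its test and a dashed line of equal change. CCL2, PADI4, SFTPB, FCAR and CYBB lie above the line by 3.76 or more, and CKMT1B, SFRP5, ALDOC, CIART and CGREF1 below it, at -2.85 or less.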

How the data were processed

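RNA was sequenced from 6 KG-1 libraries (3 per group), with 6 MOLM-14 libraries used for the difference between lines. Per the submitters' processing notes, the authors used RSEM 1.2.25 and STAR 2.4.2a (and bcl2fastq 2.17.1.14) with GRCh38 (hg38). The gene annotation is not stated. Each deposited value is a log2 of FPKM + 1, as the steps of the values show. Column names gave the library, and 20 symbols turned into dates were restored from identifiers. GENCODE 29 held 99.43% of the identifiers and gave the gene positions. Depth was estimated from the steps between low values, of which 77.7% to 82.2% lay within 0.15 fragment of a whole number (27.6% to 28.3% at other depths). No counts were used, so no counting interval is given.

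With limma 3.58.1 in R 4.3.3, group means were fitted to log2(FPKM + 1), a pseudocount of 1, and moderated by eBayes with trend and robust estimation. Two-sided p-values were adjusted by Benjamini-Hochberg over all 12785 genes, and a gene was called (rose, fell, passed) at an adjusted p under 0.05. The log2(FPKM + 1) scale understates the change of low genes. The genes, lists and tests were chosen with earlier results of these data known. Named genes are the 20 largest changes per direction (at least 2-fold, 5 FPKM in 1 group, no overlap, no clone or small RNA symbol), up to 6 called members of each list, members of short lists, genes at the level threshold, the 5 largest line differences per direction, and DHODH, CAD, UMPS, MYC, SPI1, CEBPA, CEBPB, CEBPE, GFI1 and CD34. Some genes and 1 list that the rule covers are not reported here. List members named outside the rule were chosen after their values were seen, and most are examples that did not pass or moved less. Alternatives were pseudocounts of 0.1 and 0.5, other level filters, 4 scalings, all 12 libraries in 1 fit, eBayes without trend and robust estimation, libraries weighted by spread, a replicate block and leaving out each library. The scripts were tested on simulated data with 200 of 12785 genes changed, a far smaller share than the 47.7% called here. Of simulated log2 changes of 0.5, 22.4% were recovered, and of changes of 1, 91%. A gene that did not pass may therefore still have changed by a small amount.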

Additional observations from a re-analysis of the deposited data

Results flagged for a closer look

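The change with ASLAN003 differed between KG-1 and MOLM-14 in 1331 genes by the interaction test of limma. Among the named genes, the largest differences above 0 (KG-1 change minus MOLM-14 change, log2 scale) were 5.31 for CCL2, 4.17 for SFTPB, 4.17 for PADI4, 3.83 for FCAR and 3.76 for CYBB. Those below 0 were -3.09 for CKMT1B, -3.02 for SFRP5, -2.97 for ALDOC, -2.88 for CIART and -2.85 for CGREF1. CCL2, SFTPB, FCAR and SFRP5 had MOLM-14 changes of -0.09, 0.00, 0.00 and 0.00, and CGREF1 one of 0.51. ALDOC rests on libraries that differ within the ASLAN003 group (4.82, 5.3 and 30.1 FPKM). Groups here have 3 libraries, so no outlier test applied.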

How the results depend on the processing

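Counts of higher and lower genes stayed within 1.5 times 3435 and 2658 in every setting run, from 2598 higher in the fit of all 12 libraries to 4496 after rescaling, and from 1779 lower after rescaling to 3605 after centring. Leaving out each library gave 2849 to 3605 higher and 2065 to 2635 lower genes. The count of genes that differed between the lines (1331) ranged from 765 to 2366 over the 12 libraries left out, with 794, 867, 765 and 819 without KG-1 ASLAN003 replicate 1, ASLAN003 replicate 2, DMSO replicate 1 and DMSO replicate 2, and 2366 without MOLM-14 ASLAN003 replicate 1. With the replicate number as a block, 3293 genes were higher and 2514 lower. Same-numbered libraries did not deviate together (correlations of 0.048, 0.008 and 0.026), so the numbers were not taken as pairs. Of the 311 called named genes, 28 lost the call without at least 1 library and 20 in the fit of all 12 libraries. After rescaling, 12 lost it, and after centring 13. The changes of 17 named genes moved by over 1.5 times with a pseudocount of 0.1, all with a group mean of at most 0.78 FPKM. HSP90AB1 and GAPDH, called lower, had changes of 0.0016 and 0.0033 after quantile normalization (adjusted p = 0.991 and 0.967), and the cause was not tested. With 3 libraries per group and no counts, changes of genes near 1 FPKM are the least certain.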
